A study of Homo sapiens with 3 samples.

Results

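Cells overexpressing LOXL2 Δe13, a splice form of lysyl oxidase like 2, were set directly against cells overexpressing wild-type LOXL2. The comparison covers genes rather than samples. A gene was represented by its non-control probe set of highest mean signal over the 3 arrays of the series, and it entered if the higher of its Δe13 and wild-type signals reached 5.94, the median of all non-control values (the floor). Of 18132 genes with a single symbol on the array, 10847 entered. JDP2 lay just inside the floor with signals of 5.94 (Δe13) and 5.88 (wild type), and EPHA1 just outside with 5.75 and 5.94. Values are log2 signals, and differences are Δe13 minus wild type unless another comparison is named.

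KYSE150 cells, an established human line derived from a squamous carcinoma of the esophagus, were used throughout. The labels give 3 groups of 1 array each, transfected for overexpression of LOXL2 Δe13, for overexpression of wild-type LOXL2, or with an empty vector. The labels leave out whether transfection was stable and whether a line came from 1 clone. Total RNA was hybridised to PrimeView arrays, which carry several probe sets for many genes. With 1 array on each side no test was possible, so each gene is described by its signals and by its distance from the empty vector array.

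LOXL2 is a secreted copper-dependent amine oxidase that oxidises lysine residues of collagen and elastin so that the fibres become cross-linked. Exon skipping can remove part of such an enzyme while leaving the rest of the protein in frame or truncated. Squamous carcinoma cells in culture keep a keratin and desmosome programme, secrete cytokines of the interleukin 1 family, and sense oxygen through hypoxia-inducible factors, whose targets include glycolytic enzymes and stress regulators.

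Measures of the whole arrays differed little, with one exception. Array medians over non-control probe sets lay between 5.93 and 5.95. The submitters' processing equalises the arrays' distributions, so close medians follow from it and do not show how alike the arrays were. Of 9 squamous epithelium markers with a single symbol, 8 reached the floor in a LOXL2 array, among them KRT5 at 11.45 and 11.52 in the Δe13 and wild-type arrays. SOX2 did so only in the empty vector array, at 6.06 against 5.88 and 5.63. By contrast, 1 of 8 fibroblast, 3 of 7 leukocyte and 1 of 6 endothelium markers did. On the ACTB control probe sets the 3′ signal exceeded the 5′ signal by 1.38 in the Δe13 array, 1.46 in the wild-type array and 1.26 in the empty vector array. The exception was the background control probe sets, which match no human transcript and are graded by the number of G and C bases in their probes. The 9 of them with 17 to 25 such bases had a median Δe13 minus wild-type difference of 0.16 (range 0.11 to 0.22), and the 10 with 3 to 12 differed by a median of -0.01. Against the empty vector array the GC-rich ones had medians of -0.06 (Δe13) and -0.23 (wild type). The wild-type array stood farther from the control on this measure, and its part in the gene differences was not tested.

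**Figure D1:**
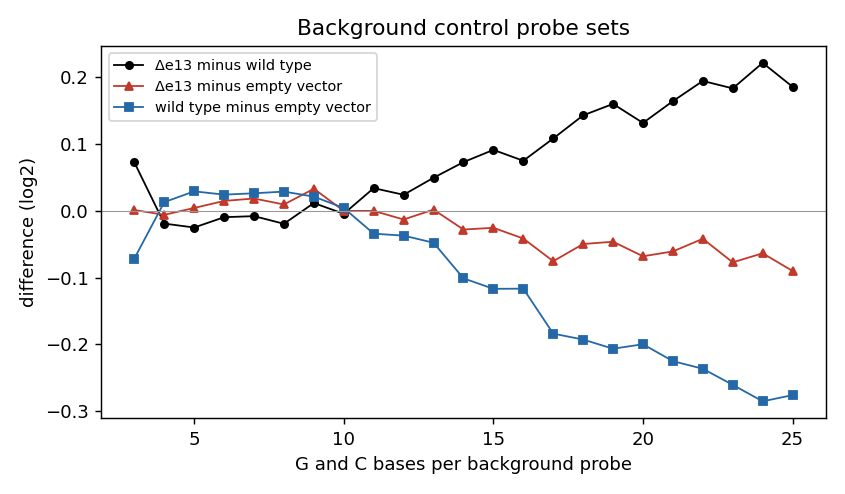
Differences (log2) between arrays on the background control probe sets, plotted against the number of G and C bases per probe. Above 12 such bases the wild-type array lay below the empty vector array, and Δe13 minus wild type ran from 0.05 at 13 bases to 0.19 at 25.

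LOXL2 itself was the gene with the widest separation, and its probe sets did not behave alike. Probe set 11751288_a_at read 7.41 in the Δe13 array, 14.05 in the wild-type array and 7.46 in the empty vector array. Only the wild-type array was high on this probe set, by 99.6-fold over Δe13 (a difference of -6.64), while the Δe13 array lay 0.05 below the control. Probe set 11718833_a_at gave 10.77, 10.22 and 5.06 in the same order, and 11718834_at gave 7.94, 8.07 and 5.38. Both LOXL2 arrays were high on these probe sets, and they differed from each other by 0.54 and -0.14. On 11718832_a_at the signals were 8.73, 8.32 and 8.81, so that the wild-type array was the lowest of the 3. Probe positions within the transcript were not used here, so the pattern checks the labels only as far as it separates the 3 arrays.

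**Figure D2:**
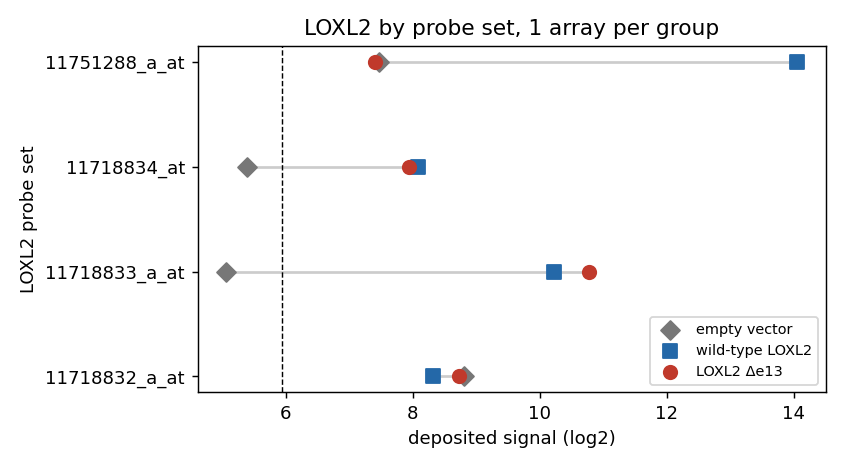
Deposited signal (log2) of the 4 LOXL2 probe sets in the 3 arrays, with the floor of 5.94 as a dashed line. The wild-type array stands alone on 11751288_a_at, and both LOXL2 arrays stand above the empty vector array on 11718833_a_at and 11718834_at. On 11718832_a_at neither LOXL2 array stands above the empty vector array, and the wild-type array is the lowest.

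The other lysyl oxidases separated little between the LOXL2 arrays. LOXL4 read 6.22 with Δe13, 6.33 with the wild type and 6.95 with the empty vector. LOX read 6.21, 6.15 and 6.21, and LOXL1 read 6.74, 6.65 and 6.46. LOXL4 thus lay below the control in both LOXL2 arrays by a similar amount, and LOXL3 stayed below the floor with 5.40 and 5.25.

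Few genes were far apart. At 1.5-fold or more (0.58 on the log2 scale), 20 genes were higher in the Δe13 array (0.184% of the genes compared) and 13 were lower (0.12%). At 2-fold the counts were 2 higher (0.0184%), ANKRD37 and HILPDA, and 1 lower (0.00922%), LOXL2. The split at 1.5-fold moved with the scaling: 14 higher and 16 lower after centring the arrays on their medians, and 16 higher and 23 lower after a loess correction for mean signal. The middle of the distribution was narrow, with quartiles of -0.11 and 0.08 and a median of -0.015. Probe sets of the same gene differed among themselves with a standard deviation of 0.13, which is the only repeat measurement and does not cover the spread between cultures. Just inside 1.5-fold were IGFL1 at 0.59 and BCDIN3D at -0.61, and just outside were ZNF436-AS1 at 0.57 and DHRS2 at -0.58.

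Dim genes made up most of the list. With the genes ranked by mean signal and split into 4 equal classes, 21 of the 33 genes at 1.5-fold or more (0.304% of the genes compared) belonged to the dimmest class, 4 and 1 to the middle classes, and 7 to the brightest. The interquartile range of the differences was 0.24 in the dimmest class and 0.13 in the brightest. In 13 of the 33 the lower of the LOXL2 signals lay below the floor. A single probe set above the floor carried 23 of them, and of the other 10 genes 8 had all probe sets in the same direction. Counts of a gene's probe sets, here and below, cover only those above the floor. LOXL2 was one exception, and the other was OSMR, the oncostatin M receptor, which read 11.03, 10.15 and 11.33 on its brightest probe set and whose 3 probe sets ran from -0.35 to 0.88.

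For each gene the array that departed from the empty vector was taken as the one at least 2 times as far from it as the other. By this rule the wild-type array departed in 19 of the 33 genes and the Δe13 array in 4 (FYN, MGAT3, IGFL1 and SANBR). In 9 genes both arrays moved in opposite directions from the control, and in 1, HSPA6, both moved the same way. Over all 10847 genes the wild-type array departed in 34.7% and the Δe13 array in 13.7%, so the wild-type array was the more distant one over the whole array too. Among the 20 highest genes the wild-type array lay below the control in 19 (49.6% of all genes) and the Δe13 array above it in 13 (48.8%). Among the 20 lowest the wild-type array lay above the control in all 20 (50.3%). These genes were chosen by the same values, so nothing is read from the counts. All these distances share the empty vector array, of which there is 1, and a deviation of that array would enter both.

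**Figure D3:**
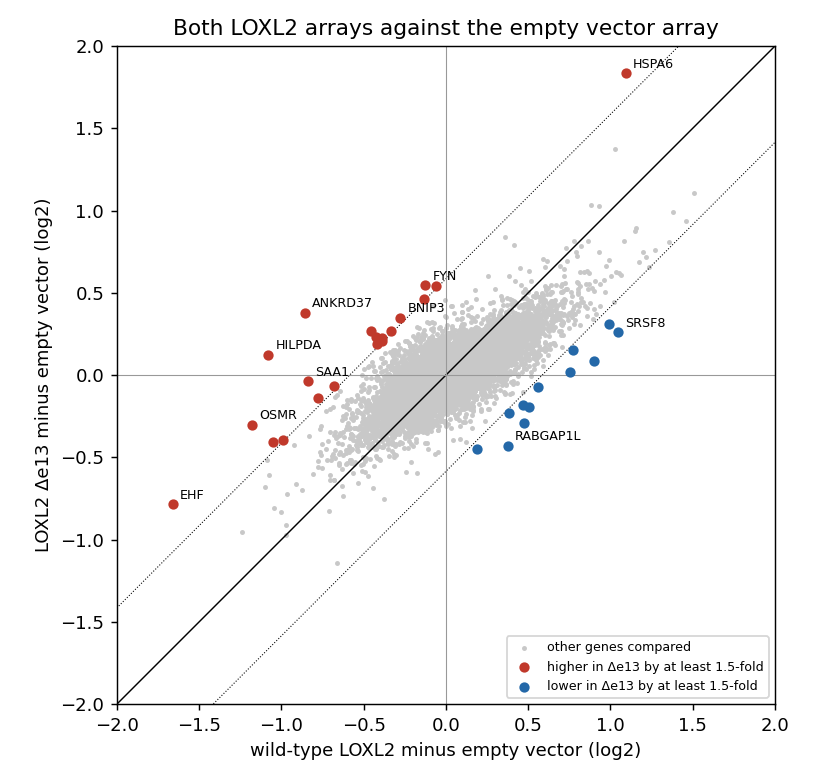
Difference from the empty vector array (log2) of each gene compared, with the wild-type array on the horizontal axis and the Δe13 array on the vertical axis; LOXL2 is left out for scale, and the dotted lines mark 1.5-fold between the LOXL2 arrays. HILPDA and SAA1 lie far from zero horizontally and near zero vertically, while FYN lies near zero horizontally and at 0.55 vertically.

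Genes of the hypoxia response were mostly higher with Δe13 than with the wild type, and the order of the 3 arrays differed by gene. Of 34 genes on the list, 29 were compared and 26 of them were higher in the Δe13 array, against 45.2% of all genes. That share, and 54.5% for genes lower with Δe13, belongs beside the counts of the lists below. Their median difference was 0.26, against -0.015 over all genes, and 5 of the 29 were higher by 1.5-fold or more, against 0.184% of all genes. Against the empty vector the list had medians of 0.08 (Δe13) and -0.20 (wild type). Its median stayed between 0.24 and 0.29 under the other processing settings. This list and those below were chosen with earlier results of these data known, so their counts only describe these arrays. The GC-rich background probe sets were higher with Δe13 by a median of 0.16, and the part of background in this list was not tested.

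ANKRD37, an ankyrin repeat protein known as a target of hypoxia-inducible factors, read 10.36 in the Δe13 array, 9.12 in the wild-type array and 9.98 in the empty vector array. It was 2.35-fold higher with Δe13 on its 1 probe set above the floor, with the wild-type array at -0.86 from the control and the Δe13 array at 0.38. HILPDA, a hypoxia-inducible protein of lipid droplets, read 11.37, 10.17 and 11.25, with a difference of 1.20 on 1 probe set and 1.21 on the other. The probe set used carries the suffix _x_at, which marks probes that may also match related sequences. Neither HILPDA nor BNIP3 was compared once probe sets marked _s_at and _x_at were left out. The Δe13 array was near the control for HILPDA and the wild-type array 1.08 below it. ADM, which encodes the vasodilator peptide adrenomedullin, read 12.46, 11.83 and 12.60, and its 3 probe sets gave 0.59 to 0.77. Here too the wild-type array was the low one.

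In BNIP3 and ERO1A, as in ANKRD37 and HILPDA, the empty vector array lay in the middle, but here neither LOXL2 array was 2 times as far from it as the other. BNIP3, a mitochondrial receptor for mitophagy, read 9.72 in the Δe13 array, 9.10 in the wild-type array and 9.38 in the control. ERO1A, the oxidase that recharges protein disulfide isomerases in the endoplasmic reticulum, read 10.48, 9.87 and 10.26, and both of its probe sets were higher with Δe13. P4HA1, a collagen prolyl hydroxylase subunit, had the same order at 9.55, 9.17 and 9.38. So did the hexokinase HK2 at 9.81, 9.44 and 9.60.

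A further group followed ADM. DDIT4, an inhibitor of mTOR signalling, read 12.54 with Δe13 and 12.66 with the empty vector, and was lower with the wild type by a difference of -0.66 from the control. The transcriptional repressor BHLHE40 read 8.67, 8.12 and 8.76. NDRG1, a stress-induced cytoplasmic protein, read 12.59, 12.10 and 12.54, and all 6 of its probe sets were higher with Δe13. In each of these the wild-type array lay at -0.66 to -0.44 from the control and the Δe13 array at -0.12 to 0.05. Not all targets were separated. VEGFA, the angiogenic growth factor, read 9.80 and 9.84 in the LOXL2 arrays, EGLN1, a prolyl hydroxylase of the oxygen sensor, 8.90 and 8.93, and the kinase PFKFB3 10.03 in both. The factors themselves were close together, at 11.53 and 11.43 for HIF1A and 9.21 and 9.02 for EPAS1, and the 8 compared genes of that list had a median of 0.04 that changed sign under other settings.

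The promoters of 4 of the 5 hypoxia genes at 1.5-fold are shown because these genes had the widest separation in the hypoxia list. HILPDA was not in the promoter table. Each sequence is the 250 bases before the start of transcription, from RefSeq on build GRCh38.p14, written 5′ to 3′ on the strand of the gene. Capitals mark ACGTG or GCGTG on either strand, the core letters of the hypoxia response element; on the other strand they read CACGT and CACGC, and CACGTG holds a match on both strands. The ANKRD37 window is chr4:185396591-185396840 on the plus strand, that of ADM chr11:10304823-10305072 on the plus strand, that of BNIP3 chr10:131981924-131982173 on the minus strand and that of ERO1A chr14:52695559-52695808 on the minus strand.
ANKRD37: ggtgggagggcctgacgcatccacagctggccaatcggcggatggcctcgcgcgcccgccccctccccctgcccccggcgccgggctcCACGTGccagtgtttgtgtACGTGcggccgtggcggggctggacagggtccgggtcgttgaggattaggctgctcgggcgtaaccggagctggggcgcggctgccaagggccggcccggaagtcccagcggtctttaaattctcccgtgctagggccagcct
ADM: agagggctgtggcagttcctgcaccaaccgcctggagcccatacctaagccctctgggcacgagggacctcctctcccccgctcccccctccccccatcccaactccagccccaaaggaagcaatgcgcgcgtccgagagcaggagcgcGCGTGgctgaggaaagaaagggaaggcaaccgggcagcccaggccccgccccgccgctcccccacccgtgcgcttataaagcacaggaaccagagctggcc
BNIP3: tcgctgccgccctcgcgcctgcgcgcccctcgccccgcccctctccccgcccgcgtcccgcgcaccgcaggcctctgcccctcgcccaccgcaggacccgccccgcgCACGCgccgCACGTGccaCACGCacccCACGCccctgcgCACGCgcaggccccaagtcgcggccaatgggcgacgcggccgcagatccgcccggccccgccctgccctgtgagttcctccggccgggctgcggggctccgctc
ERO1A: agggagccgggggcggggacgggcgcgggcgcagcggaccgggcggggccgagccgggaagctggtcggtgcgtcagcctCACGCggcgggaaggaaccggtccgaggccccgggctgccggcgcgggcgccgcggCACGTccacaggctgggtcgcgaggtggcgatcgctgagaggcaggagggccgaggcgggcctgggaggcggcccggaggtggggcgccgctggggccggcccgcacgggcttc

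ANKRD37 held 3 matches of ACGTG, BNIP3 held 2 of ACGTG and 4 of GCGTG, ERO1A held 1 of each and ADM 1 of GCGTG. At least 1 match of either was found in 43.2% of all 35116 promoter windows of this length, in 55.2% of the 13015 windows of the genes compared, and in 29 of the 34 windows that the table holds for 24 of the hypoxia genes. These are counts of letters in a window and not of bound sites. The table lists several starts for some genes, and each was counted.

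Glycolytic genes shared the low wild-type level. Of 20 compared, 17 were higher in the Δe13 array with a median of 0.12, and the list medians against the control were -0.02 (Δe13) and -0.20 (wild type). ALDOC, a brain-type aldolase, read 8.98 with Δe13, 8.51 with the wild type and 9.58 with the empty vector, and all 5 of its probe sets were higher with Δe13. Both LOXL2 arrays were below the control for ALDOC, the wild-type array by 1.08. ENO2, an enolase, read 8.65, 8.24 and 8.57, and GPI, the isomerase that follows hexokinase, read 11.47, 11.12 and 11.42. PGK1 read 12.93, 12.69 and 13.01, with 9 of 9 probe sets higher with Δe13. LDHA at 13.99 and 13.97 and PGAM1 at 13.27 and 13.26 were level between the LOXL2 arrays.

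Inflammatory genes were higher with Δe13 in 15 of 18 cases (45.2% of all genes were), with a median of 0.21. Of these, 1 gene was higher by 1.5-fold or more (0.184% of all genes). SAA1, an acute phase apolipoprotein, read 7.68 in the Δe13 array, 6.88 in the wild-type array and 7.72 in the empty vector array. Its 1 probe set carries the suffix _x_at, which marks probes that may also match related sequences such as SAA2. The interleukin 1 genes were lower than the control in both LOXL2 arrays and lowest in the wild-type one, with IL1B at 10.14, 9.65 and 10.57 and IL1A at 11.39, 10.94 and 11.70. ICAM1, a leukocyte adhesion molecule, read 8.69, 8.28 and 8.77, and the NF-kB feedback inhibitors TNFAIP3 (9.21, 8.85 and 9.17) and NFKBIA (9.86, 9.55 and 9.92) had the same low wild-type signal. LCN2 and CXCL8 were different, since for them the Δe13 array was the one that departed. LCN2, a siderophore-binding lipocalin, read 6.66, 6.18 and 5.82, and the chemokine CXCL8 read 9.16, 8.84 and 8.72.

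Antigen processing genes moved little and mostly in one direction. Of 17 compared, 14 were higher with Δe13 and the median was 0.13. The standard deviation between probe sets of a gene, also 0.13, is for single probe sets and does not give the spread of a list median. PSMB9, an immunoproteasome subunit, read 9.42, 9.22 and 9.56, and the proteasome activator PSME1 read 11.04, 10.85 and 11.15. Of 21 interferon-stimulated genes 14 were higher with a median of 0.06. IFIT1, which binds foreign RNA ends, read 10.60, 10.24 and 10.38, and the ubiquitin-like modifier ISG15 read 12.08, 11.80 and 11.62. RSAD2, an antiviral enzyme, lay the other way at 6.62, 6.91 and 6.54. The medians of these lists, and those of the glycolysis, immediate early and ATF4 lists (0.12, 0.14 and 0.11), are no larger than the 0.16 by which the GC-rich background probe sets were higher with Δe13. The part of background in them was not tested.

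Genes of growth factor signalling were mixed. Of 28 immediate early and MAPK feedback genes 19 were higher with Δe13, with a median of 0.14. ETV5, an ETS factor downstream of ERK, read 8.53, 8.15 and 8.61, and DUSP6, the ERK phosphatase, read 7.89, 7.58 and 8.29 with 4 of 4 probe sets higher with Δe13. PHLDA1 was below the control in both LOXL2 arrays at 9.76 and 9.47 against 10.71. KLF10 lay the other way with 9.22 (Δe13) and 9.49 (wild type), both above the control at 8.33. FYN, a Src family kinase, was one of the few genes in which the Δe13 array departed, with 6.87, 6.21 and 6.33 on 1 probe set. Its relatives SRC (7.88 and 8.01) and YES1 (9.47 and 9.66) were lower with Δe13 than with the wild type, and LYN (8.83 and 8.67) was higher.

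Among clock genes PER1, a repressor of the circadian feedback loop that also responds to acute signals, read 7.74 in the Δe13 array, 7.12 in the wild-type array and 7.81 in the control. DBP, an output factor of the clock, had the same order at 7.58, 7.28 and 7.83. CRY1 lay the other way at 9.5, 9.75 and 9.07, as did NR1D2 at 9.20, 9.49 and 9.26. Of the 13 compared, 7 were higher with Δe13 and the median was 0.01, which ran from -0.02 to 0.11 under other settings. Against the control the wild-type array had a list median of 0.01, with 5 of 13 genes below it. The low wild-type signal of PER1 was thus not general in the list.

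Stress genes separated the LOXL2 forms in single members rather than as lists. HSPA6, a stress-inducible HSP70 chaperone, read 7.34 with Δe13, 6.60 with the wild type and 5.51 with the empty vector. Both LOXL2 arrays were above the control and Δe13 was the higher, on 1 probe set and from a control signal below the floor. Of 16 heat shock chaperones 7 were higher with Δe13, and the median was -0.04. HSPB8 read 8.55, 8.87 and 8.17 and HSPH1, a nucleotide exchange factor of HSP70, 10.94, 11.10 and 10.59 with 8 of 8 probe sets lower with Δe13. HSPA6 was the only member of this list past 1.5-fold.

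The unfolded protein response was above the control in both arrays and differed little between them. The 25 genes compared had a median of 0.05, with 14 higher with Δe13, while their medians against the empty vector were 0.35 (Δe13) and 0.30 (wild type). HSPA5, the main chaperone of the endoplasmic reticulum, read 13.31, 13.22 and 12.28. PDIA4, a disulfide isomerase, read 12.01, 11.78 and 11.48. The stress sensors lay the other way, with ATF6 at 7.62, 8.0 and 7.61 and EIF2AK3 at 8.12, 8.39 and 8.19. The list's median was -0.004 with the floor at the 75th percentile. In the ATF4 amino acid response, 20 of 25 genes were higher with Δe13 and the median was 0.11. DDIT3, the transcription factor CHOP, read 8.70, 8.36 and 7.33, the cytokine GDF15 8.45, 8.08 and 8.69, and the lipoprotein receptor VLDLR 6.61, 6.22 and 6.75. ATF4 itself was level at 12.07 and 12.13.

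EHF, an epithelial ETS factor, was far below the control in both LOXL2 arrays, with 6.37 in the Δe13 array, 5.49 in the wild-type array and 7.15 in the empty vector array on 1 probe set. The wild-type signal lay below the floor and at -1.66 from the control. CSTA, a cysteine protease inhibitor of squamous differentiation, followed the same order at 10.60, 10.27 and 11.02, but of 9 differentiation genes compared 4 were higher with Δe13 and the median was -0.02, which became positive under 3 other settings. GPRC5A, a retinoic acid-induced receptor of epithelia, read 10.83, 10.11 and 10.57 with 2 of 2 probe sets higher. KRT14, a basal keratin, read 7.30, 7.08 and 7.76, and DSG3, a desmosomal cadherin, 9.19, 9.33 and 9.0. Of 25 matrix, integrin and adhesion genes 17 were higher with a median of 0.07, among them the collagen receptor subunit ITGA2 (8.39, 8.12 and 8.49) and ITGB4 of the hemidesmosome (8.15, 7.95 and 8.39, 7 of 7 probe sets). TNC, the matrix glycoprotein tenascin C, lay the other way at 8.23, 8.63 and 7.85, lower with Δe13 on 3 of 3 probe sets. Epithelial-mesenchymal markers had a median of -0.04. VIM, the mesenchymal filament protein vimentin, read 7.99, 7.59 and 7.81, whereas SNAI2, a repressor of epithelial genes, read 10.28, 10.53 and 9.93.

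Zinc finger genes were mostly lower with Δe13 than with the wild type. The family was taken by symbol, ZNF, ZFP, ZSCAN or ZKSCAN with a number, and most of its members encode DNA-binding proteins of the C2H2 type. Of 531 such genes on the array 303 were compared, 215 were lower with Δe13 (54.5% of all genes were) and 3 were lower by 1.5-fold or more (0.12% of all genes). The median difference was -0.098, and against the empty vector the family had medians of 0.06 (Δe13) and 0.16 (wild type), with 212 of 303 above the control in the wild-type array. The median stayed between -0.121 and -0.045 under the other settings, and it was -0.097 without the probe sets marked _s_at and _x_at. The GC-rich background probe sets had a median of 0.16 and the dimmest class of all genes one of 0.04, and the part of either in the family's median was not tested.

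ZNF181 read 5.65 in the Δe13 array, 6.33 in the wild-type array and 5.34 in the control. ZFP37 read 5.35, 6.05 and 5.54, and ZNF398 7.19, 7.82 and 7.04 with both probe sets lower. The difference of ZNF398, -0.62, was -0.29 with the median over all its probe sets. ZNF543 read 5.55, 6.12 and 5.65, ZNF557 7.37, 7.91 and 7.0, and ZNF768 6.59, 7.12 and 6.42. In all 6 the wild-type array departed upwards, and in 3 of them, ZNF181, ZFP37 and ZNF543, the Δe13 signal was below the floor. The family's highest member was ZSCAN10 at 6.04, 5.57 and 5.88. ZMYM6, a zinc finger protein of the MYM type outside the family by symbol, read 6.73, 7.46 and 6.71, and its 3 probe sets were all lower with Δe13, at -0.74 to -0.23.

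Nucleolar and replication genes were also lower with Δe13. In the list of MYC and ribosome biogenesis, 27 of 29 genes were lower (54.5% of all genes were) with a median of -0.11. The medians against the control were 0.15 (Δe13) and 0.31 (wild type). POLR1A, the largest subunit of RNA polymerase I, read 7.51, 7.88 and 7.52. UTP15, of the small subunit processome, read 7.34, 7.67 and 7.0, the ribosome assembly factor RRS1 10.20, 10.53 and 9.89, and the rRNA methyltransferase NOP2 8.42, 8.72 and 8.24. The exceptions were FBL, a nucleolar methyltransferase, with a difference of 0.07, and MYC at 8.79, 8.65 and 8.86. Of 31 DNA replication genes 24 were lower, with a median of -0.08. CCNE2, a cyclin of the entry into S phase, read 6.56, 7.0 and 6.37, and CDC6, which loads the replicative helicase, 9.56, 9.87 and 9.24. Mitosis genes lay the other way, with 27 of 35 higher with Δe13 and a median of 0.06, as for the kinase AURKB at 9.40, 9.19 and 9.62 and the kinesin KIF20A at 9.56, 9.35 and 9.76.

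Splicing factors of the SR type contained one of the lowest genes. SRSF8, an intronless relative of SRSF2, read 5.88 in the Δe13 array, 6.67 in the wild-type array and 5.62 in the empty vector array. SRSF2 read 9.83, 10.08 and 9.65, and TRA2B 11.37, 11.58 and 11.18 with all 9 probe sets lower with Δe13. SRSF1 read 10.92, 11.14 and 10.95. All 4 CLK kinases on the list, which phosphorylate these factors, lay the other way, as CLK3 did at 9.14, 8.97 and 9.13. Of the 19 genes compared 12 were lower with Δe13 and the median was -0.08. Of 21 p53 targets 12 were higher with a median of 0.04. Its member TP53I3, a quinone oxidoreductase, read 5.35, 6.12 and 5.64 on 1 probe set, while CDKN1A read 9.47 and 9.43 and MDM2 7.47 and 7.57 in the LOXL2 arrays. Cholesterol genes were below the control in both LOXL2 arrays and had a median difference between them of 0.01, which changed sign under other settings. SQLE read 9.70, 9.42 and 10.15.

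**Figure D4:**
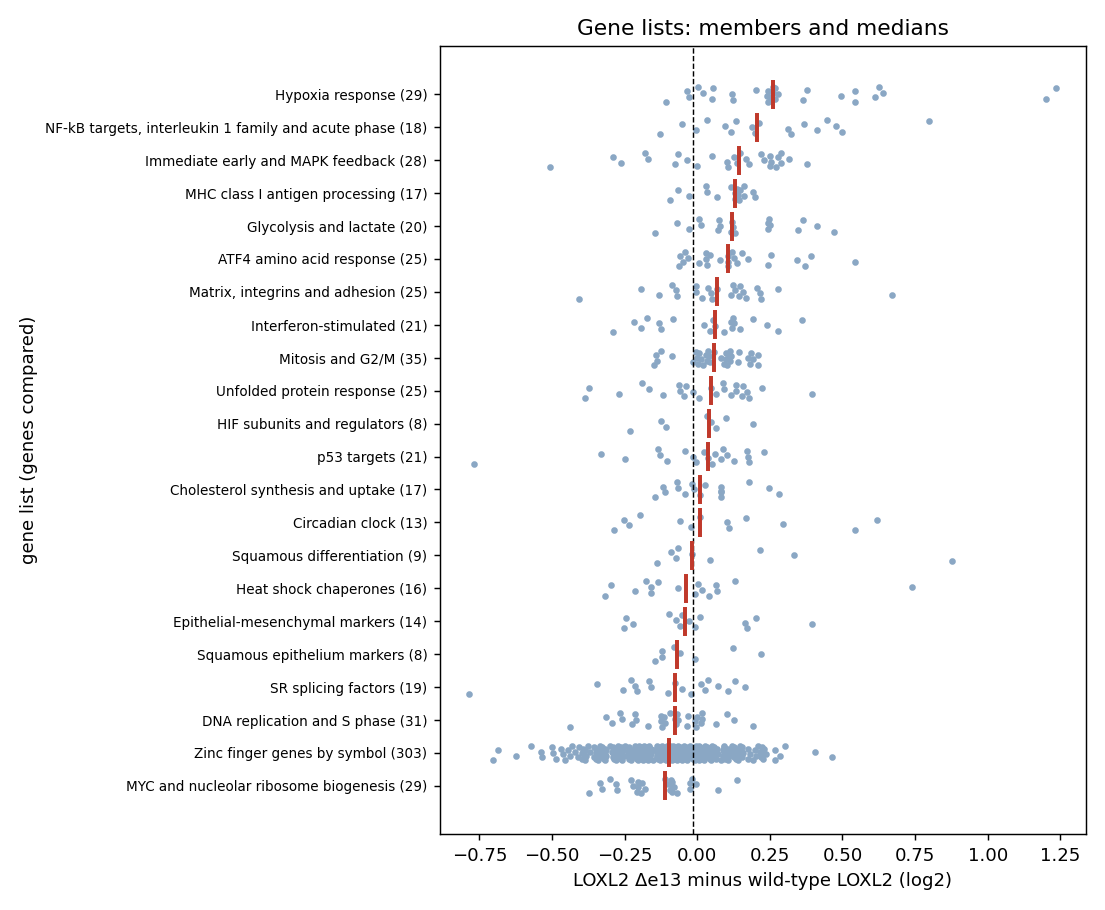
Δe13 minus wild type (log2) of each gene compared, by gene list, with the list median as a red bar and the median of all genes as a dashed line. The hypoxia list has a median of 0.26 and the list of MYC and ribosome biogenesis one of -0.11, and single genes such as HSPA6, EHF, SRSF8 and TP53I3 lie far from the rest of their lists.

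The remaining genes with the highest differences were mostly dim and rested on 1 probe set. RDM1, a RAD52 motif protein, read 6.73, 6.09 and 7.13, with 2 of 2 probe sets higher, at 0.24 and 0.64. ZBED2, a zinc finger transcription factor, read 6.48, 5.88 and 6.87. In these the control was the highest of the 3 arrays, as it was for the antisense RNA ZNF436-AS1 at 7.95, 7.39 and 8.47. The probe sets of ZNF436-AS1 differed by 0.17 and 0.57, and the lower value is the one left without the _s_at and _x_at sets. MGAT3, which adds the bisecting residue to N-glycans, read 6.12, 5.52 and 5.58, and IGFL1, a secreted protein related to insulin-like growth factors, read 7.77, 7.18 and 7.31. In both the Δe13 array departed upwards. NHLRC4 read 7.11, 6.5 and 6.92, and its difference of 0.61 was 0.35 with the median over probe sets. AGRP (5.99, 5.33 and 5.75), NEUROD2 (6.02, 5.42 and 5.75) and GSX2 (6.29, 5.69 and 6.08) are known from the brain, and each was close to the floor with the empty vector between the LOXL2 arrays.

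Among the genes with the lowest differences, KRCC1 read 6.06 in the Δe13 array, 6.87 in the wild-type array and 5.97 in the control, with both probe sets lower at -0.81 and -0.68. SECISBP2L, related to the factor that reads selenocysteine codons, read 6.14, 6.78 and 6.21, and FAM135A 6.70, 7.35 and 6.88. In these the wild-type array was the high one. RABGAP1L, a Rab GTPase-activating protein, read 5.22, 6.02 and 5.64, BCDIN3D, an RNA methyltransferase, 5.89, 6.5 and 6.12, and SANBR 5.58, 6.21 and 6.03. These 3 had the control in the middle and a Δe13 signal below the floor. DHRS2, a short-chain dehydrogenase, read 7.88, 8.46 and 7.22, and GRIP1, a scaffold for glutamate receptors, 5.56, 6.10 and 4.75, with both LOXL2 arrays above the control. MIR22HG, the host gene of miR-22, read 7.37, 7.94 and 6.92, and its 4 probe sets were all lower with Δe13, at -0.59 to -0.35. TADA2A, an adaptor of histone acetyltransferase complexes, read 5.58, 6.13 and 5.24, and ZNRF3, a ubiquitin ligase that removes Wnt receptors, 5.46, 6.00 and 5.41.

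**Figure D5:**
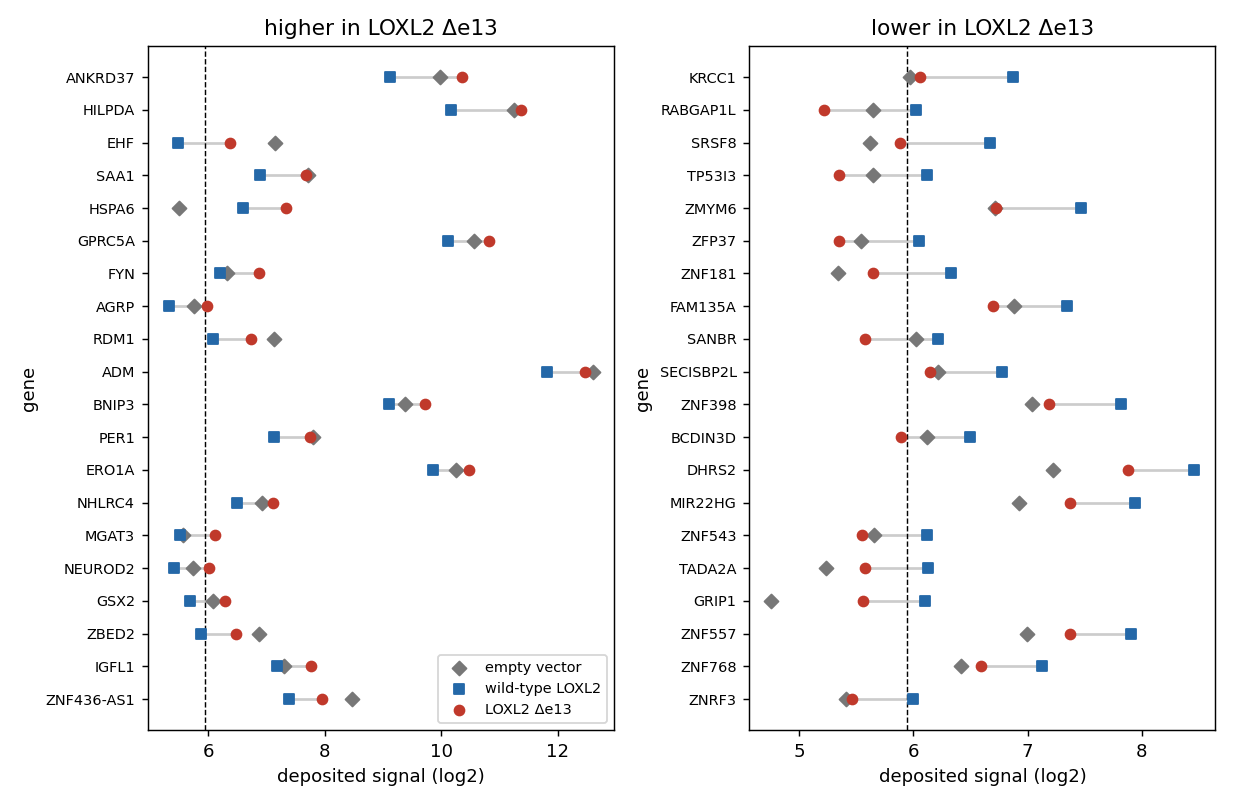
Deposited signals (log2) in the 3 arrays for the 20 highest and 20 lowest genes whose probe sets above the floor went the same way, with the floor of 5.94 as a dashed line. In 19 of the 20 highest genes the wild-type array lies below the empty vector array, and in all 20 of the lowest it lies above.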

How the data were processed

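For 3 PrimeView arrays the authors deposited log2 signals per probe set. The submitters' processing notes name RMA, which corrects background, equalises the arrays' distributions and summarises probes; its version was not used here. Values from 2.07 to 14.56 fit a log2 scale. Equalising distributions hides a change shared by most transcripts. Of 49293 non-control probe sets, 44988 had a single symbol in the GEO platform annotation, 1832 several and 2473 none; symbols were updated through Entrez IDs in RefSeq.

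Differences were subtracted log2 values. With 1 array per group there was no test, and the number of arrays limits the precision. Named genes were the 20 highest and 20 lowest whose probe sets above the floor went the same way, LOX family genes, and from each of 26 lists at most 4 members farthest from zero on the side of the median, with members past 1.5-fold the other way; other members of a list, and OSMR, were chosen after their values were seen. In the family by symbol, antisense and other suffixed symbols were left out. The members and lists were chosen with earlier results of these data known. The rules were also run on simulated arrays, with planted changes larger, and genes brighter, than most at 1.5-fold here. That run does not show how the rules perform on small differences in dim genes. Python 3.11.15, pandas 2.3.3, statsmodels 0.14.6 and matplotlib 3.10.9 were used.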

Additional observations from a re-analysis of the deposited data

Results flagged for a closer look

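In 20 of the 33 genes at 1.5-fold or more, the LOXL2 arrays lay on opposite sides of the empty vector (22.7% of all genes). With 1 array per group the difference was not tested. Of these genes 12 were higher with Δe13, by a log2 difference of 1.24 for ANKRD37, 1.20 for HILPDA, 0.72 for GPRC5A, 0.67 for FYN, 0.66 for AGRP, 0.63 for BNIP3, 0.61 for ERO1A, 0.61 for NHLRC4, 0.60 for MGAT3, 0.60 for NEUROD2, 0.60 for GSX2 and 0.59 for IGFL1. The other 8 were lower, at -6.64 for LOXL2 on 11751288_a_at, -0.80 for RABGAP1L, -0.77 for TP53I3, -0.70 for ZFP37, -0.65 for FAM135A, -0.64 for SANBR, -0.63 for SECISBP2L and -0.61 for BCDIN3D. The 33 genes were chosen by the gap between the LOXL2 arrays, which favours opposite sides, so nothing is read from the count.

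The opposite sides were often a matter of one array alone. HILPDA lay at 0.12 from the control with Δe13 and at -1.08 with the wild type, and SECISBP2L at -0.07 and 0.56. LOXL2 lay at -0.05 and 6.59 on probe set 11751288_a_at only. On 11718833_a_at both LOXL2 arrays were above the control, at 5.71 (Δe13) and 5.16 (wild type), and on 11718834_at at 2.56 and 2.69. On 11718832_a_at they lay at -0.08 and -0.48. For MGAT3 it was the wild-type array that lay near the control, at -0.06 against 0.54 with Δe13. BNIP3 at 0.35 and -0.28 and RABGAP1L at -0.43 and 0.38 were about evenly placed around it.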

How the results depend on the processing

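Of 467 values recomputed under another setting, 434 stayed, 33 moved and 0 reversed, where a count stayed within 1.5 times and a difference within the 0.13 between probe sets of a gene. None of the 228 differences of named genes changed sign, and 20 of them, in 10 genes, dropped under 1.5-fold. Named genes were chosen for probe sets going the same way, and another floor leaves a gene's value as it was. A change of sign was therefore unlikely by construction. Genes that left the comparison are not counted, such as EHF and PER1 with the median over probe sets. HILPDA, BNIP3, EHF, SAA1, AGRP, NEUROD2 and SANBR left it without the _s_at and _x_at probe sets. Most named genes left it with the floor raised to 7.86. The 228 differences therefore cover only the genes that stayed in the comparison under each setting. Of 161 medians of all genes or of lists 12 changed sign, in the lists of cholesterol, squamous differentiation, clock, HIF subunits and unfolded protein response genes and over all genes. The largest shift of a median was 0.11, which is under the 0.13 allowed. Every median was therefore counted as stayed, also those that changed sign, and the tally does not show that the medians were stable. No paired analysis was possible because each group has 1 array, and no array could be left out.

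Against 20 higher and 13 lower genes at 1.5-fold, the median over probe sets gave 13 higher, no floor 64 higher and 28 lower, the floor at the 75th percentile (7.86) 7 higher and 1 lower, and loess 23 lower. At 2-fold, the median over probe sets gave 0 lower, no floor 2 lower, leaving out _s_at and _x_at probe sets 1 higher, and a 3-fold threshold 0 higher.

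The wild-type array departed in 46 genes with no floor, in 5 with the strict floor and in 12 at a ratio of 3. The Δe13 array departed in 13 with no floor, 0 with the strict floor and 2 after centring. Both departed in opposite directions in 3 genes with the median over probe sets, 32 with no floor, 3 with the strict floor, 3 at a ratio of 1.5 and 14 at a ratio of 3. Both departed the same way in 2 genes with the median over probe sets, 0 with the strict floor, 2 after centring, 3 after loess, 0 at a ratio of 1.5 and 4 at a ratio of 3. The cause of these moves was not tested.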

Other observations

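Some bright genes outside the lists were higher with Δe13 on every probe set; they were chosen after their values were seen. EGFR, the epidermal growth factor receptor, read 10.42 in the Δe13 array, 9.88 in the wild-type array and 10.55 in the empty vector array, and all 6 of its probe sets were higher with Δe13, by 0.15 to 0.54. PLAU, the urokinase plasminogen activator, read 11.57, 11.04 and 11.54, with 3 of 3 probe sets higher by 0.53 to 0.72. The nuclear long noncoding RNA MALAT1 read 10.75, 10.28 and 10.60, with 3 of 3 probe sets higher by 0.36 to 0.47, and the ephrin EFNA1 read 9.81, 9.32 and 9.62. In EGFR and PLAU the wild-type array was the low one and the Δe13 array stayed within 0.13 of the control.

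Among brighter genes that were lower with Δe13, GPATCH4, a nucleolar G-patch protein, read 9.44, 9.96 and 9.02, and TRMT1L, a tRNA methyltransferase-like protein, read 8.16, 8.63 and 8.10 with all 4 probe sets lower. The cell cycle inhibitor CDKN2B read 7.01, 7.51 and 6.92 with both probe sets lower. TNKS2, a tankyrase, was dimmer and had an unusual order, with 5.59 in the Δe13 array, 6.07 in the wild-type array and 6.73 in the control. Its Δe13 signal lay below the floor.

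The promoter windows of the 20 highest and 20 lowest genes differed in the letters searched. The table held 20 windows for 15 of the highest genes, of which 15 had ACGTG or GCGTG, and 28 windows for 17 of the lowest genes, of which 6 had. Over the genes compared 55.2% of 13015 windows had. Hypoxia genes are among the highest, so this count is not independent of that list. Several starts of a gene were each counted. Both sets of letters contain CG, and the base composition of the windows was not compared.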
